A study of Mus musculus with 15 samples.

Results

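Peroxisomes are small organelles bounded by a membrane, and 34 genes for their assembly, their oxidation pathways and their share of ether lipid synthesis were followed in the fat around the mouse aorta. The genes were chosen by symbol, and all 34 were found among the 43352 genes of the count table. All 34 also passed the low-count filter, which kept 19645 genes. Perivascular adipose tissue (PVAT) was taken from the thoracic aorta (tPVAT) and the abdominal aorta (aPVAT) of mice aged 11 weeks. Control mice were Prdm16flox, that is, they carried Prdm16 alleles flanked by loxP sites and no Cre. The cKO mice were Prdm16flox, AdipoQCre+, in which regulatory sequence of the adipocyte gene Adipoq drives Cre, so that Prdm16, a transcriptional regulator of brown and beige fat, is deleted in adipocytes while other cells of the tissue keep it. tPVAT was sequenced in 4 libraries per genotype, and aPVAT in 4 libraries from controls and 3 from cKO (numbers 1, 3 and 4). Whether samples within a group came from separate animals is not stated, and p-values therefore measure only how these samples vary.

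Peroxisomes hold no genome, and their matrix proteins are all imported from the cytosol. Peroxins (Pex genes) dock the import receptors, thread cargo through the membrane, return the receptors to the cytosol, and build and divide the organelle. Inside, very long chain, branched chain and dicarboxylic fatty acids are shortened by beta-oxidation, phytanic acid first passes through alpha-oxidation, and catalase breaks down the hydrogen peroxide that the oxidases release. The first steps of plasmalogen (ether lipid) synthesis take place there as well. Brown fat is rich in peroxisomes beside its mitochondria.

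Values are read counts relative to library size (CPM) scaled by TMM factors, and differences are log2 fold changes, each with a standard error (SE). Tests are edgeR quasi-likelihood F tests with Benjamini-Hochberg adjustment over all 19645 genes, and a gene is said to have risen, fallen or differed where the adjusted p was under 0.05. Library totals ranged from 37.8 M to 68.7 M counts, with aPVAT cKO 4 the smallest. Prdm16 itself was lower in cKO, by a log2 change of -1.08 in tPVAT (adjusted p 2.22e-06) and of -0.57 in aPVAT (adjusted p 0.00992). The adipocyte markers Adipoq and Plin1 were present in all groups (means of 836 to 1572 and 771 to 976 CPM), whereas the kidney marker Umod had 0 counts in every group. The whole kidney list of 7 genes, of which 2 were tested, was not at 0. Its sum was 5.205 to 17.11 CPM (tPVAT without Cre) and 6.597 to 15.2 CPM (tPVAT with Cre). For aPVAT the sum was lower, 2.147 to 3.261 CPM (without Cre) and 0.7705 to 5.254 CPM (with Cre). The rRNA-like gene Gm42418 had its highest shares, 2.1% and 0.898%, in aPVAT cKO 4 and aPVAT control 2, and 0.0641% to 0.198% elsewhere.

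The promoters of genes on which the results turn are printed first, since 4 of these genes changed in cKO of both depots (Acaa1b, Pex11a and Pex16 higher, Phyh lower) and Acaa1a is the near-identical neighbour of Acaa1b. Each sequence covers 250 bases before to 50 bases after the start in RefSeq, on GRCm38.p6 and 5′ to 3′ on the gene's strand. Capitals mark GGGCGG (the core of the Sp1 site), CCAAT (the NF-Y box) and AGGTCA (the half-site of nuclear receptors such as the PPARs), on either strand. Adjoining capitals can join motifs that touch or overlap.
Acaa1b, chr9:119157044-119157343, minus strand: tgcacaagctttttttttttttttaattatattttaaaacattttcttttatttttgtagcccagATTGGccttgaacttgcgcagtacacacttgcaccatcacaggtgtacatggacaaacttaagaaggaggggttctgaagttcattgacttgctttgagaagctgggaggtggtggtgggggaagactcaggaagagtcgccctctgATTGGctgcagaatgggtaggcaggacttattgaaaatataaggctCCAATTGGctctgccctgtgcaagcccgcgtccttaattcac
Acaa1a, chr9:119341044-119341343, plus strand: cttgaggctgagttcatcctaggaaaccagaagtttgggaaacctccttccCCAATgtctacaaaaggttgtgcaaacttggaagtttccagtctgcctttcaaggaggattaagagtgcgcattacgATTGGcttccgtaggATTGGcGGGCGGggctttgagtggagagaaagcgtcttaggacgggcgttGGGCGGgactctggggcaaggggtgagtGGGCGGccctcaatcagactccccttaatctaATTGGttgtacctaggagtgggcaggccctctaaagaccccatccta
Pex11a, chr7:79743082-79743381, minus strand: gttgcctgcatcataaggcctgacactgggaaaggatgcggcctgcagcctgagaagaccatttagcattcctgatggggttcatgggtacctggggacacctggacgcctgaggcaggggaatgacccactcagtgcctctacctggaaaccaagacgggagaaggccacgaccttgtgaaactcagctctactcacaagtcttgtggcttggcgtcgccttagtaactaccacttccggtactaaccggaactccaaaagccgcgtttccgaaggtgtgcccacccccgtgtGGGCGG
Pex16, chr2:92374426-92374725, plus strand: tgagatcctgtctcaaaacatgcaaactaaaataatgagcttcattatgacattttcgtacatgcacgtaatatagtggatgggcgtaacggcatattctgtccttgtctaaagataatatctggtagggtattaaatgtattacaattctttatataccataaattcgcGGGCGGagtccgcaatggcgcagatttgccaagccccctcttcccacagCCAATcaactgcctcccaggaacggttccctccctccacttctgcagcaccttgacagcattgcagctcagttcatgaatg
Phyh, chr2:4918746-4919045, plus strand: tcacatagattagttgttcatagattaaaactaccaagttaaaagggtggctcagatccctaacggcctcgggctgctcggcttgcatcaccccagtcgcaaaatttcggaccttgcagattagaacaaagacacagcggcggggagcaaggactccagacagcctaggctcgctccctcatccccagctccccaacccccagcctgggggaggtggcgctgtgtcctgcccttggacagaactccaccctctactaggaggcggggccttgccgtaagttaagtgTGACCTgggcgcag

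The window of Acaa1a holds GGGCGG at 3 places and CCAAT at 4, whereas that of Acaa1b holds CCAAT at 4 places and no GGGCGG. The RefSeq start of Acaa1a lies 1618 bases inside the GENCODE gene. Phyh has AGGTCA in its last bases, and the other 4 windows have none. RefSeq promoters were found for 28 of the 34 genes. GGGCGG stood in 22 of these 28 (78.6%) against 35.6% of all 32817 promoters, CCAAT in 13 (46.4%) against 37.4%, and AGGTCA in 4 (14.3%, Cat, Pex11g, Phyh and Scp2) against 16.3%. An exact direct repeat of AGGTCA with 1 base between its copies, the element bound by PPAR-RXR pairs, was in none of the 28 and in 0.0396% of all promoters. With up to 2 mismatches it was found in that of Cat and in 3.86% of all. These are matches of letters in a short window and were not tied to any change in level. For the 28 genes 1 promoter each was taken, the nearest to the GENCODE start. The 32817 were limited neither to 1 per gene nor to genes tested here, so the shares compare unlike sets. Even the nearest start lay 26451 bases from the GENCODE start for Scp2 and 32952 for Eci2.

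Acaa1a and Acaa1b encode peroxisomal 3-ketoacyl-CoA thiolases, which carry out the last step of each beta-oxidation round. Acaa1b lies at chr9:119148023-119157093 on the minus strand and Acaa1a at chr9:119339676-119350299 on the plus strand (GENCODE M21, GRCm38). Their coding sequences are both 1275 bases long, align without gaps and differ at 44 bases (96.5% identity). Bases 433 to 552 of the coding sequence hold 14 of the differences, shown in capitals, and are printed because the text that follows rests on reads being told apart between the copies.
Acaa1a: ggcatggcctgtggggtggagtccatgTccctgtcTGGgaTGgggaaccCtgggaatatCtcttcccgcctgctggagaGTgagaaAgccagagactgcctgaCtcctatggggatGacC
Acaa1b: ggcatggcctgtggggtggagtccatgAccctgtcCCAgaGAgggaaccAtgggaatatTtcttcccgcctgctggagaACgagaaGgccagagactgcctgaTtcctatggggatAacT

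Of all 50-base words in the transcripts of Acaa1b, 39.6% also occur in another gene and 30.5% in Acaa1a. For Acaa1a the shares are 17.1% and 12.4% (with Acaa1b). How reads that fit more than 1 gene were counted is not given in the sources used here, so the split between the copies is uncertain. The same holds for Scp2 (29.7% of words shared with Scp2-ps2). Hacl1 shares 27.4% with Gm49387, which overlaps its exons on the same strand over 1540 bases. Pex11g (39.2% with Gm44775) and Pex14 (25.2% with Gm17029) share words with genes that overlap them on the opposite strand. No word of Phyh, Pex11a, Pex2, Pex6, Amacr, Acox2 or Cat is shared. The strand setting of the counting is likewise not given, so genes with an opposite-strand neighbour in their exons may hold its reads. Among them are Pex14 with Gm17029 over 1776 bases and Pex11g with Gm44775 over 1396. Shorter overlaps are those of Acaa1b with Dlec1 (224), Acaa1a with Myd88 (290) and Pex16 with Large2 (127).

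In tPVAT, cKO libraries had more mRNA of the thiolase Acaa1b and the transporter Abcd2 and less of the receptor-export peroxin Pex6 and the alpha-oxidation enzyme Phyh. Of the 34 genes 7 rose (Pex13, Pex16, Pex11a, Acox2, Acaa1b, Scp2 and Abcd2), 6 fell (Pex2, Pex6, Decr2, Amacr, Phyh and Abcd3) and 21 did not pass. That is 38.2% of the genes, against 12% of all genes tested, of which 5.44% were higher and 6.61% lower. The median log2 change over the 34 was 0.01, and over all genes -0.01, so the changes went both ways. In aPVAT 3 rose (Pex16, Pex11a and Acaa1b), 1 fell (Phyh) and 30 did not pass, 11.8% against 1.53% of all genes (0.743% higher and 0.789% lower), with medians of 0.03 and -0.01. Fitted on the tPVAT libraries alone, 14 rose and 7 fell (61.8% against 20.7% of all genes in that fit), and without tPVAT cKO 2 only 3 fell (29.4% called against 10.2%). Fitted on the aPVAT libraries alone, or without aPVAT cKO 1, 1 gene rose (Acaa1b) and 0 fell (2.94% against 0.48% and 0.807% of all genes), and 0 fell without aPVAT cKO 3 (8.82% against 1.11%). The 4 genes called in aPVAT were also called in tPVAT, with the same sign. The same overlap was not counted over all genes, so it cannot be called particular to the 34. The difference between the depots in the genotype effect passed for 1 gene, Abcd2 (2.94% of the 34, against 0.784% of all genes, 0.158% with a positive and 0.626% with a negative difference).

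**Figure D1:**
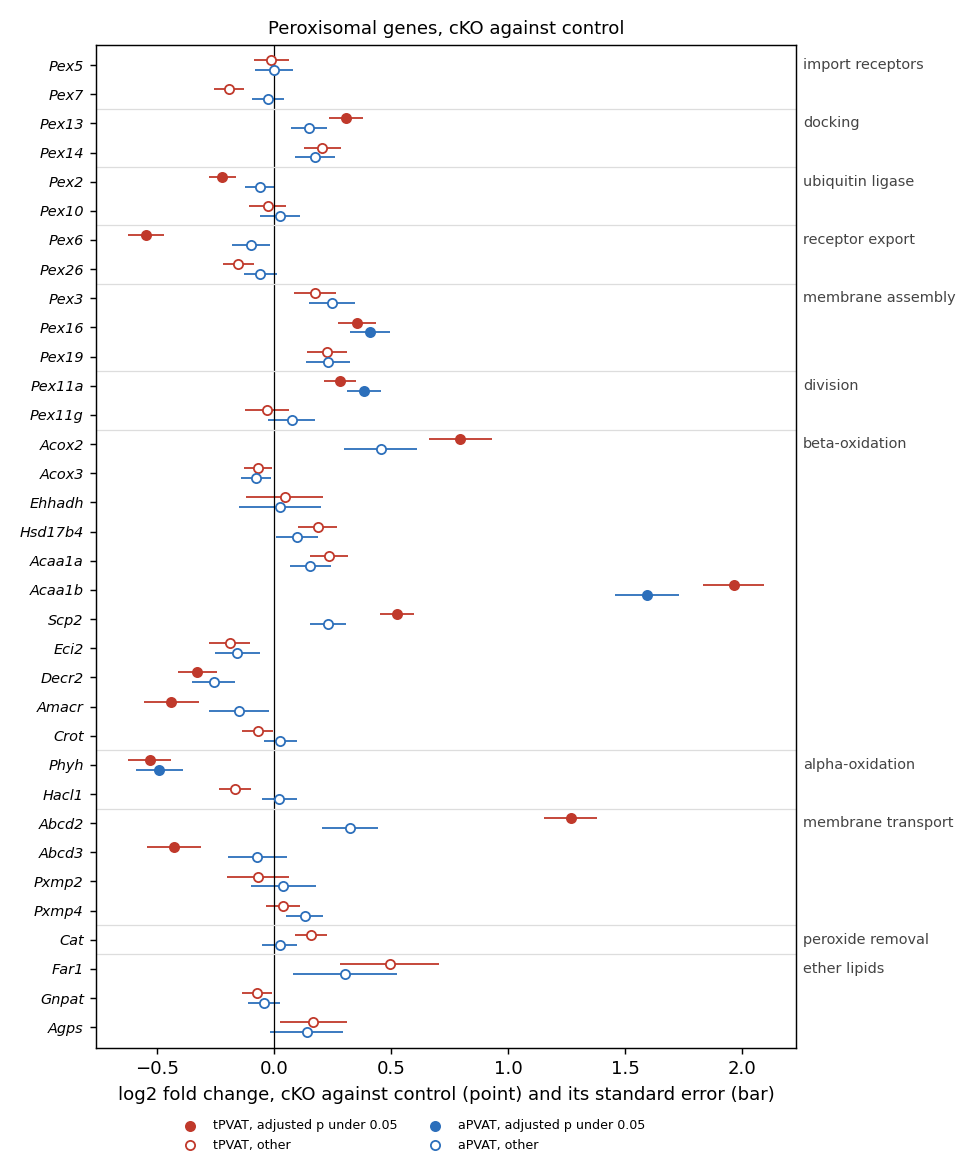
Log2 fold change of cKO against control (point) with its SE (bar) for each of the 34 genes, in tPVAT and aPVAT, grouped by role; filled points have adjusted p under 0.05. Acaa1b lies farthest to the right in both depots (1.96 and 1.59), Abcd2 lies far to the right in tPVAT (1.27), and Phyh is on the left in both (-0.53 and -0.49).

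Markers of cell types moved with genotype as well. In tPVAT cKO 5 of 10 adipocyte markers rose and 1 fell, and their summed level, 14680 to 15130 CPM in control libraries, was 19670 to 20620 CPM in cKO libraries. Of 8 endothelial markers 3 fell (summed level 1034 to 1176 against 915 to 973.7 CPM), as did 3 of 7 heart muscle markers (203.1 to 272.2 against 75.67 to 201.5 CPM) and 2 of 8 thermogenic markers (8799 to 9524 against 5588 to 6815 CPM). The liver list had 2 of 6 genes higher in tPVAT cKO (Cyp2e1 and Serpina1a) and 1 in aPVAT cKO (Serpina1a). Its summed level, 546.3 to 573.4 CPM in tPVAT controls and 1390 to 1747 CPM in tPVAT cKO, was nearly all Cyp2e1, which fat expresses too, while the defining liver gene Alb had group means of 2.66 and 2.72 CPM. A single smooth muscle marker and a single Schwann cell marker were lower in tPVAT cKO. In aPVAT the thermogenic markers had 5 of 8 lower, with a summed level of 713.9 to 1204 CPM without Cre and of 134.8 to 196.5 CPM with it. The share of counts from the mitochondrial genome was 34.6% ± 1.28 in controls and 29.9% ± 2.38 in cKO of tPVAT (SD, n = 4 per group). The part of these shifts in the results on peroxisomal genes was not tested, and in bulk tissue fewer cells of a type and less RNA per cell cannot be told apart.

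Import into the peroxisome starts with the cytosolic receptors Pex5 and Pex7, which bind the C-terminal and the N-terminal targeting signals. Neither passed in cKO of either depot (0 of 2 each). Pex5 averaged 79.9 ± 5.01 CPM in controls and 79.3 ± 5.35 CPM in cKO of tPVAT (SD, n = 4 per group). Pex7 stood at 38.8 to 40.9 CPM in tPVAT controls and at 33.2 to 37.5 CPM in tPVAT cKO, without overlap but with adjusted p 0.0597 (log2 -0.19, SE 0.0633). It passed in 7 of 24 alternatives, among them the fits without aPVAT cKO 3 (0.0441), aPVAT control 1 (0.0384) or tPVAT cKO 3 (0.0448). Cargo of Pex7 includes the thiolases, Phyh and Agps.

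Of the docking proteins, Pex13 rose in tPVAT cKO and Pex14 did not pass. Pex13 had 134, 123, 143 and 125 CPM in tPVAT controls and 158, 153, 171 and 168 CPM in tPVAT cKO. In aPVAT it had 77.2, 93.3, 94.5 and 82.2 CPM in controls and 95.4, 95.7 and 97.8 CPM in cKO. The groups did not overlap in either depot, and the rise of 0.31 in tPVAT passed (SE 0.0727, adjusted p 0.0106), whereas the 0.15 in aPVAT did not (adjusted p 0.454). For Pex14 the log2 differences were 0.21 (adjusted p 0.111) and 0.17 (adjusted p 0.427).

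Pex2 and Pex10 are subunits of the ubiquitin ligase that marks receptors for recycling, and Pex6, a motor ATPase held at the membrane by Pex26, pulls them out. Pex2 and Pex6 fell in tPVAT cKO. Pex6 had 97.8, 95.8, 86.9 and 97.4 CPM in tPVAT controls and 62.1, 69.3, 60.9 and 66.3 CPM in tPVAT cKO. In aPVAT its controls had 64.7, 52.2, 61.4 and 59.4 CPM and cKO had 56.3, 50.7 and 59.8 CPM. All tPVAT cKO libraries were below all tPVAT controls, whereas the aPVAT groups overlapped. Pex6 fell by 0.55 on the log2 scale in tPVAT (SE 0.0754, adjusted p 0.000168), and the difference of -0.10 in aPVAT did not pass (adjusted p 0.664). The difference between depots was 0.45 (SE 0.11, adjusted p 0.0838), which did not pass here and passed in 4 of 23 alternatives, among them DESeq2 (adjusted p 0.00803) and the fits without tPVAT cKO 2 (0.0377) or aPVAT control 1 (0.0407). Pex2 had 48.6, 44.1, 43.2 and 42.5 CPM in tPVAT controls and 39.3, 37.2, 37.7 and 39.0 CPM in tPVAT cKO. In aPVAT it was even, at 26.3, 26.8, 26.5 and 26.9 CPM in controls and 27.7, 23.9 and 25.2 CPM in cKO. Its tPVAT change of -0.22 (SE 0.0592, adjusted p 0.0228) was no longer called without tPVAT control 1 (0.0825), tPVAT cKO 2 (0.0587) or tPVAT cKO 3 (0.0623). Pex10 and Pex26 did not pass in either depot (log2 -0.15 to 0.02).

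Pex3, Pex16 and Pex19 place proteins in the peroxisomal membrane, and all 3 had higher means in cKO of both depots, with Pex16 alone passing the test. Pex16 had 63.0, 77.8, 71.2 and 68.7 CPM in tPVAT controls and 80.2, 93.1, 94.4 and 91.5 CPM in tPVAT cKO. Its aPVAT levels were 54.5, 59.7, 64.5 and 56.7 CPM in controls and 79.5, 71.2 and 83.9 CPM in cKO. Neither pair of groups overlapped, and the changes were 0.36 (SE 0.0802, adjusted p 0.00821) and 0.41 (SE 0.086, adjusted p 0.0232). In aPVAT Pex16 did not pass without control 1 (0.0581), control 4 (0.0713), cKO 1 (0.0979) or cKO 4 (0.113). The differences of Pex3 were 0.17 and 0.25 (adjusted p 0.239 and 0.289), and those of Pex19, the carrier of membrane proteins, were 0.23 in both depots (adjusted p 0.105 and 0.302).

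Pex11a and Pex11g shape and divide the organelle. Pex11a had 60.4, 58.4, 62.6 and 62.5 CPM in tPVAT controls and 79.4, 68.6, 73.5 and 75.2 CPM in tPVAT cKO. The aPVAT libraries gave 56.8, 56.8, 59.8 and 59.7 CPM in controls and 86.0, 69.4 and 72.7 CPM in cKO. All cKO libraries were above all controls of their depot, by 0.28 (SE 0.0683, adjusted p 0.0124) and 0.38 (SE 0.0731, adjusted p 0.0115). Without aPVAT cKO 1, the highest library, the aPVAT change was 0.28 with adjusted p 0.0792. Pex11g had 10.4 ± 0.491 CPM in controls and 10.2 ± 0.724 CPM in cKO of tPVAT (SD, n = 4 per group) and did not pass in either depot.

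**Figure D2:**
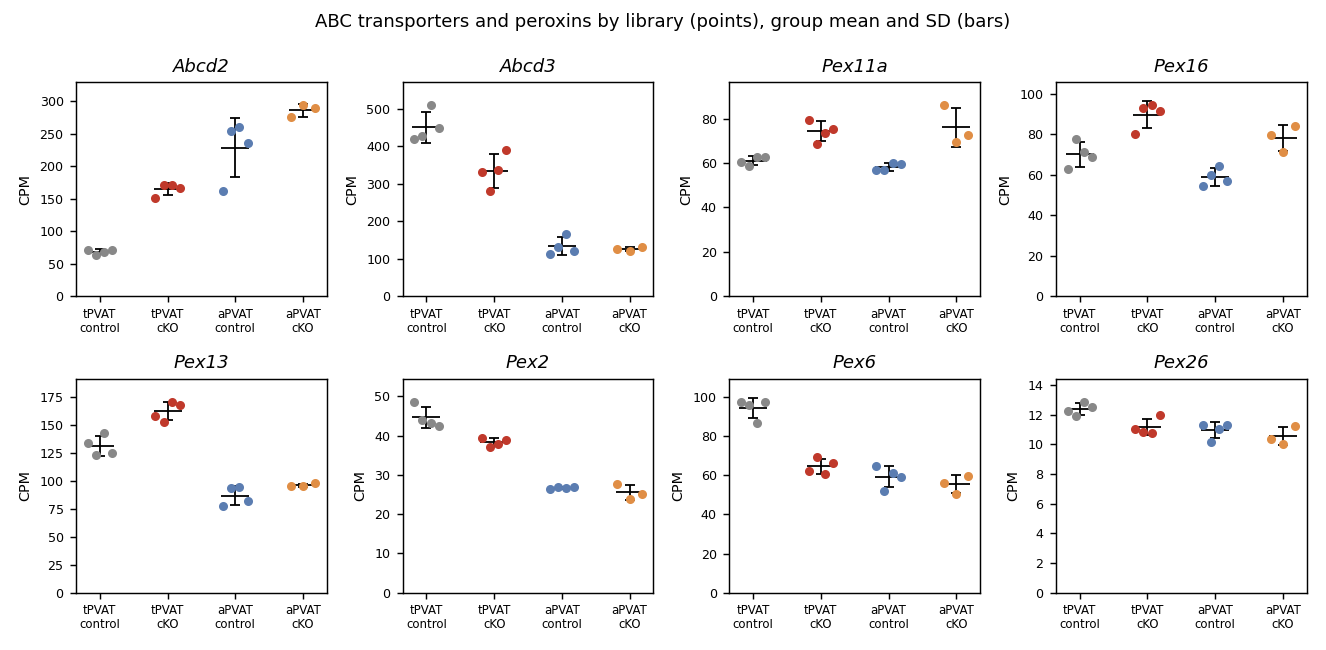
CPM of 2 transporters and 6 peroxins in each of the 15 libraries (points), with group means and SD (bars), every axis starting at 0. Abcd2 lies near 69 CPM in tPVAT controls and at 151 CPM or more in all other groups, whereas Abcd3 is at 281 CPM or more in all tPVAT libraries and at most 167 CPM in aPVAT.

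Beta-oxidation had the largest single change. Acaa1b had 42.2, 53.5, 56.9 and 49.5 CPM in tPVAT controls and 212, 172, 168 and 235 CPM in tPVAT cKO. Levels in aPVAT were 22.1, 21.4, 24.2 and 20.4 CPM in controls and 67.9, 54.3 and 77.4 CPM in cKO. The lowest cKO library was well above the highest control in each depot. Expression was 3.90-fold higher in tPVAT cKO (log2 1.96, SE 0.13, adjusted p 8.04e-08) and 3.02-fold higher in aPVAT cKO (log2 1.59, SE 0.136, adjusted p 9.5e-06). The difference between these effects did not pass (-0.37, adjusted p 0.613), and both calls held in all 24 alternatives.

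The copy Acaa1a passed in neither genotype comparison. It had 83.0, 85.5, 83.3 and 83.5 CPM in tPVAT controls and 101, 97.3, 92.5 and 104 CPM in tPVAT cKO. For aPVAT the values were 82.2, 65.2, 72.7 and 73.0 CPM in controls and 83.7, 70.2 and 91.0 CPM in cKO. The tPVAT groups did not overlap, yet the change of 0.24 missed the threshold (SE 0.0806, adjusted p 0.0706) and passed in 7 of 24 alternatives, among them the fits without aPVAT control 1 (0.0344), aPVAT control 2 (0.0468) or aPVAT cKO 3 (0.0378). In aPVAT the groups overlapped (0.15, adjusted p 0.493). Per length of exon, Acaa1b made up 57.4% ± 3.02 of the mRNA of the pair in controls and 81.6% ± 1.74 in cKO of tPVAT (SD, n = 4 per group). In aPVAT its share was 40.4% ± 2.61 (n = 4) without Cre and 64.6% ± 1.08 (n = 3) with it. These shares carry the uncertainty of the read split given above. They also rest on the annotated exon lengths, 1962 bases for Acaa1b and 4414 for Acaa1a. In CPM, without division by length, Acaa1a was above Acaa1b in tPVAT controls (means of 83.8 against 50.5) and in both aPVAT groups. Only in tPVAT cKO was it below (98.8 against 197).

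Acox2 and Acox3 are oxidases for branched chain substrates, and Amacr converts such substrates into the mirror form that can be oxidised. Acox2 was scarce, with 2.83, 2.42, 2.48 and 2.66 CPM in tPVAT controls and 4.84, 4.05, 4.81 and 4.33 CPM in tPVAT cKO. Abdominal fat gave 0.786, 0.99, 1.01 and 0.662 CPM in controls and 1.27, 1.24 and 1.01 CPM in cKO, and the groups overlapped. It rose by 0.80 in tPVAT (SE 0.134, adjusted p 0.00103), and its 0.46 in aPVAT did not pass (SE 0.156, adjusted p 0.211). Acox3 had differences of -0.07 and -0.08 and passed in neither depot. Amacr had 31.6, 29.3, 28.8 and 30.1 CPM in tPVAT controls and 23.4, 18.6, 23.7 and 22.8 CPM in tPVAT cKO. In aPVAT it had 19.9, 12.5, 16.3 and 17.0 CPM in controls and 16.2, 13 and 15.3 CPM in cKO, which overlapped. The tPVAT fall of Amacr (-0.44, SE 0.118, adjusted p 0.0228) was not called without tPVAT control 1 (0.0638), tPVAT control 4 (0.0527) or tPVAT cKO 2 (0.0585).

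Scp2 encodes sterol carrier protein and, from a longer transcript, the thiolase for branched chains. It had 513, 469, 503 and 495 CPM in tPVAT controls and 716, 706, 728 and 699 CPM in tPVAT cKO. Its aPVAT levels were 393, 490, 483 and 468 CPM in controls and 564, 492 and 556 CPM in cKO, and aPVAT cKO 3 lay just above the highest control. The rise was 0.52 in tPVAT (SE 0.0727, adjusted p 0.000173), and the 0.23 in aPVAT did not pass (SE 0.078, adjusted p 0.205). Decr2 reduces double bonds of unsaturated fatty acids. It had 44.7, 47.8, 47.1 and 45.1 CPM in tPVAT controls and 35.9, 32.2, 38.8 and 40.3 CPM in tPVAT cKO. The aPVAT libraries gave 20.6, 18.4, 22.8 and 18 CPM in controls and 16.3, 15.8 and 18 CPM in cKO. It fell by 0.33 on the log2 scale in tPVAT (SE 0.084, adjusted p 0.0177), a call lost without tPVAT control 2 (0.0511) or tPVAT cKO 1 (0.0529), and its -0.26 in aPVAT did not pass (adjusted p 0.237).

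The remaining beta-oxidation genes passed in neither depot. Ehhadh and Hsd17b4, the bifunctional enzymes of the middle steps, had log2 differences of 0.05 and 0.19 in tPVAT and of 0.03 and 0.10 in aPVAT. Eci2, an enoyl-CoA isomerase, had differences of -0.19 and -0.16, and Crot, which attaches carnitine to the shortened chains, of -0.07 and 0.03. Over the 11 beta-oxidation genes 3 rose, 2 fell and 6 did not pass in tPVAT, where 12% of all genes tested were called. In aPVAT 1 of the 11 rose, where 1.53% of all genes tested were called.

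Alpha-oxidation removes 1 carbon from phytanic acid, and Phyh carries out its hydroxylation. Phyh had 500, 431, 444 and 447 CPM in tPVAT controls and 317, 276, 336 and 332 CPM in tPVAT cKO. Levels in aPVAT were 187, 147, 170 and 160 CPM in controls and 113, 107 and 135 CPM in cKO. Neither depot's groups overlapped, and Phyh was 1.44-fold lower in tPVAT cKO (log2 -0.53, SE 0.0921, adjusted p 0.00129) and 1.41-fold lower in aPVAT cKO (log2 -0.49, SE 0.1, adjusted p 0.0194). In aPVAT it no longer passed without cKO 1 (0.106) or cKO 3 (0.0934). Hacl1, which cleaves the hydroxylated chain, had differences of -0.17 and 0.02 and did not pass.

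**Figure D3:**
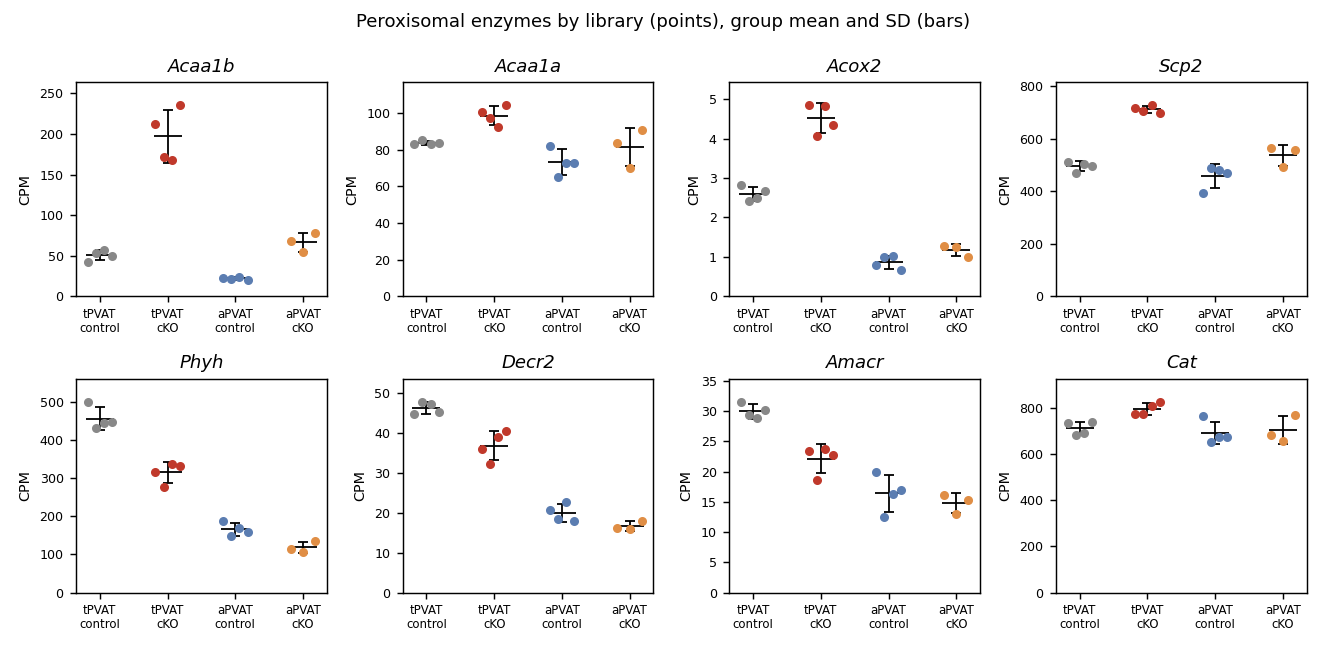
CPM of 8 peroxisomal enzymes in each of the 15 libraries (points), with group means and SD (bars), every axis starting at 0. Acaa1b is higher in cKO of both depots (212, 172, 168 and 235 CPM in tPVAT cKO), Phyh is lower in both, and the group means of Cat lie between 692 and 797 CPM.

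Abcd2 and Abcd3 are ABC transporters that carry acyl-CoA into the peroxisome, Abcd2 with a leaning to very long and polyunsaturated chains and Abcd3 to branched and dicarboxylic ones. Abcd2 had 71.4, 63.7, 68.7 and 70.8 CPM in tPVAT controls and 151, 172, 171 and 167 CPM in tPVAT cKO. For aPVAT the values were 163, 255, 261 and 236 CPM in controls, of which control 1 was well below the others, and 275, 294 and 290 CPM in cKO. It was 2.41-fold higher in tPVAT cKO (log2 1.27, SE 0.113, adjusted p 2.07e-06). In aPVAT the groups did not overlap, but the difference of 0.33 did not pass (SE 0.119, adjusted p 0.25). The effects differed between depots by -0.94 (SE 0.165, adjusted p 0.0084, aPVAT minus tPVAT). That call held in 22 of 23 alternatives, and adjusted p was 0.056 where genotype and number together were taken as an animal.

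Abcd3 had 418, 426, 509 and 447 CPM in tPVAT controls and 332, 281, 336 and 391 CPM in tPVAT cKO. Abdominal fat gave 113, 132, 167 and 120 CPM in controls and 127, 120 and 132 CPM in cKO. It fell by 0.43 on the log2 scale in tPVAT (SE 0.117, adjusted p 0.0248), without overlap, and its -0.07 in aPVAT, where the groups overlapped, did not pass (adjusted p 0.851). The tPVAT call was lost without tPVAT control 3 (0.0795), tPVAT control 4 (0.0536), tPVAT cKO 1 (0.062), tPVAT cKO 2 (0.0754) or tPVAT cKO 3 (0.056). Per length of exon, Abcd2 made up 14.5% ± 1.22 of the mRNA of both transporters in controls and 35.6% ± 3.65 in cKO of tPVAT (SD, n = 4 per group). In aPVAT its share was 65.4% ± 3.57 (controls, n = 4) and 71.5% ± 1.32 (cKO, n = 3). Pxmp2, a pore protein of the membrane, and Pxmp4 passed in neither genotype comparison (log2 -0.07 to 0.13).

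Catalase and the ether lipid genes did not pass in cKO of either depot. Cat averaged 713 ± 28.2 CPM in tPVAT controls and 797 ± 25.9 CPM in tPVAT cKO, which did not overlap (log2 0.16, adjusted p 0.15), and 692 ± 49.2 against 704 ± 60.4 CPM in aPVAT (SD, n = 4, 4, 4 and 3). Far1, which supplies the fatty alcohol of ether lipids, had 15.8 to 18.4 CPM in tPVAT controls and 22.0 to 26.1 CPM in tPVAT cKO, yet adjusted p was 0.148 (log2 0.49, SE 0.21). In aPVAT controls Far1 ranged from 11.9 CPM in control 1 to 30.9 CPM in control 2, and this spread entered the shared estimate of variation. Without aPVAT control 1 adjusted p for Far1 in tPVAT was 0.0348. Gnpat and Agps, the enzymes of the first steps inside the organelle, had differences of -0.07 and 0.17 in tPVAT and of -0.04 and 0.14 in aPVAT.

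Between depots the pattern was more one-sided. Comparing controls, 26 of the 34 genes were lower in aPVAT than in tPVAT, 2 were higher (Abcd2 and Pxmp2) and 6 did not pass (Pex11a, Acaa1a, Scp2, Pxmp4, Cat and Far1), which makes 82.4% called against 56.6% of all genes (29.3% higher and 27.3% lower). The median log2 difference was -0.51 over the 34 genes and 0.04 over all genes. In cKO, 25 were lower, 3 higher (Abcd2, Pxmp2 and Pxmp4) and 6 did not pass (Pex26, Pex16, Pex11a, Pex11g, Cat and Far1), again 82.4%, against 52.6% of all genes (27.2% higher and 25.4% lower), with medians of -0.50 and 0.04. The summed level of the 34 genes was 4267.7 to 4437.5 CPM in tPVAT controls, 4526.7 to 5004.8 CPM in tPVAT cKO, 3123.4 to 3379.5 CPM in aPVAT controls and 3226.2 to 3663.4 CPM in aPVAT cKO. Each depot comparison shares its libraries with the genotype comparisons. In controls the call of Pex26 was lost without aPVAT control 2 (0.0814) or 3 (0.051) or tPVAT control 3 (0.078) or 4 (0.0591). That of Pex11g was lost without aPVAT control 2 (0.0707) or 4 (0.0583) or tPVAT control 1 (0.0589) or 3 (0.0564), and that of Pex16 without tPVAT control 2 (0.0525). Acaa1a passed as lower in 10 of 24 alternatives, among them those without aPVAT control 1 (0.0117), aPVAT cKO 3 (0.0268), aPVAT cKO 4 (0.0399) or tPVAT cKO 2 (0.0271), and Far1 passed as higher without aPVAT control 1 (0.0129). In cKO the call of Acaa1a was lost without aPVAT cKO 3 (0.0993) and that of Agps without aPVAT cKO 4 (0.0612). Cat passed as lower without aPVAT cKO 4 (0.0153), aPVAT control 1 (0.028), aPVAT control 2 (0.0494) or tPVAT cKO 2 (0.0379), and Pex16 without aPVAT cKO 4 (0.0457) or tPVAT cKO 1 (0.0292).

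**Figure D4:**
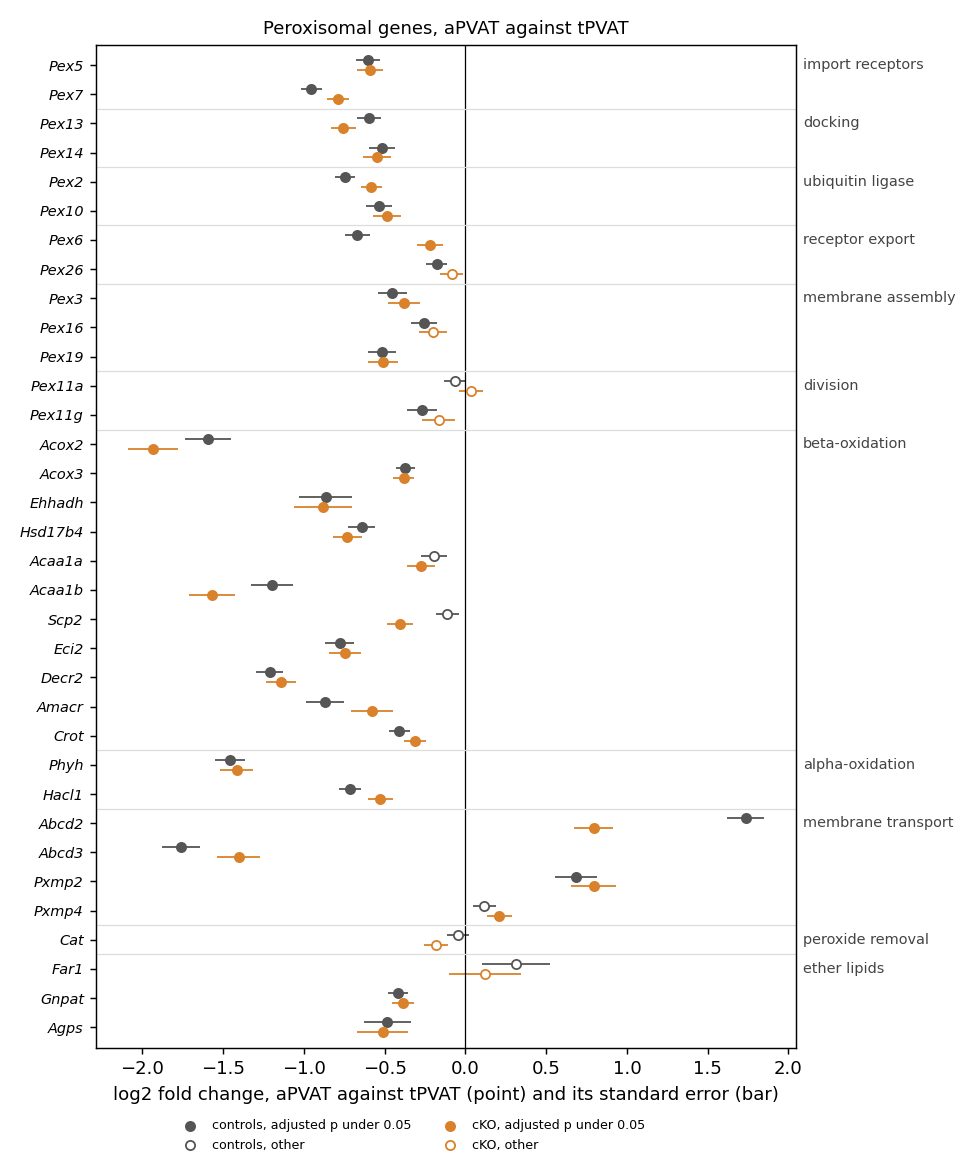
Log2 fold change of aPVAT against tPVAT (point) with its SE (bar) for the 34 genes, in controls and in cKO, grouped by role; filled points have adjusted p under 0.05. Most points lie left of 0, those of Abcd3, Acox2 and Phyh at -1.40 or lower, and Abcd2 (1.74 and 0.79) and Pxmp2 (0.68 and 0.79) lie to the right.

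The 5 largest control differences were those of Abcd3 (-1.76, SE 0.12, adjusted p 5.71e-09), Abcd2 (1.74, SE 0.115, adjusted p 3.97e-09), Acox2 (-1.59, SE 0.143, adjusted p 1.46e-07), Phyh (-1.46, SE 0.0937, adjusted p 3.02e-09) and Decr2 (-1.21, SE 0.0852, adjusted p 8.28e-09). Abcd3 was thus 3.39-fold lower and Abcd2 3.33-fold higher in aPVAT. For all 5 genes no aPVAT library overlapped a tPVAT library of the same genotype. The 5 were picked by size in the same control libraries, so this adds no support. Overlap was not counted over all genes, so its lack cannot be called particular to the 5. Acaa1b followed with -1.20 in controls and -1.57 in cKO. The import machinery was lower throughout, the receptors by -0.60 (Pex5) and -0.95 (Pex7), the docking proteins by -0.60 (Pex13) and -0.51 (Pex14), and the ligase by -0.74 (Pex2) and -0.53 (Pex10). The depot difference of Pex6 was -0.67 in controls and -0.22 in cKO, the latter with adjusted p 0.0347. It lost its call in 7 of 24 alternatives, among them those without aPVAT cKO 1 (0.0656), aPVAT cKO 3 (0.166), tPVAT cKO 2 (0.0635) or tPVAT cKO 4 (0.0738). The higher level of Pxmp4 in aPVAT cKO (0.21, adjusted p 0.0319) was not called without aPVAT cKO 1 (0.0636), aPVAT cKO 4 (0.212), tPVAT cKO 1 (0.0794) or tPVAT cKO 3 (0.0601). For ether lipids, Gnpat was lower by -0.42 and Agps by -0.48 in controls, and Far1 did not pass (0.31, adjusted p 0.213).

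Scaling mattered for the smaller depot differences. TMM factors were 1.24 to 1.35 in aPVAT and 0.751 to 0.879 in tPVAT libraries, and the mitochondrial share of counts was 14.4% ± 1.23 in aPVAT controls (SD, n = 4). With totals of nuclear genes and no TMM factors, an alternative chosen after seeing the data, the median over all genes in the control comparison moved by 0.355 to 0.393, and the median over the 34 genes lay 0.55 below it. The control difference then turned positive for Pex26, Pex16, Pex11a, Pex11g, Acaa1a, Scp2 and Cat, and the cKO difference for Pex6, Pex26, Pex16, Pex11g, Acaa1a, Crot and Cat. Under this scaling 16 genes were lower and 9 higher in aPVAT controls, 73.5% of the 34 against 68.6% of all genes tested. In cKO 14 were lower and 6 higher, 58.8% against 64.8% of all genes. The share called among the 34 genes was thus near that of all genes with this scaling, below it in cKO, and not raised as with TMM. In controls Abcd3, Acox2, Phyh, Decr2, Acaa1b and Abcd2 kept their call, and Acox3, Agps, Crot, Gnpat, Pex14, Pex19 and Pex3 were lower still but no longer passed.

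Cell markers also differed between depots. All 8 macrophage markers, 6 of 8 endothelial, 6 of 7 fibroblast and 7 of 7 neuronal markers were higher in aPVAT controls, and all 8 thermogenic and all 7 heart muscle markers were lower. Also higher were 6 of 8 lymphocyte and 5 of 6 Schwann cell markers, and also lower were 6 of 7 skeletal muscle and 4 of 4 red blood cell markers. Against the rest of their lists, 1 endothelial and 1 Schwann cell marker were lower in aPVAT controls. Of 10 adipocyte markers 5 were higher and 2 lower in aPVAT controls. The liver list had 2 of 6 genes higher, with a summed level of 3333 to 4577 CPM, again nearly all Cyp2e1. Their part in the depot differences of the peroxisomal genes was not tested. Macrophage markers summed to 405.6 to 458.5 CPM in tPVAT controls and 704.8 to 968 CPM in aPVAT controls.

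**Figure D5:**
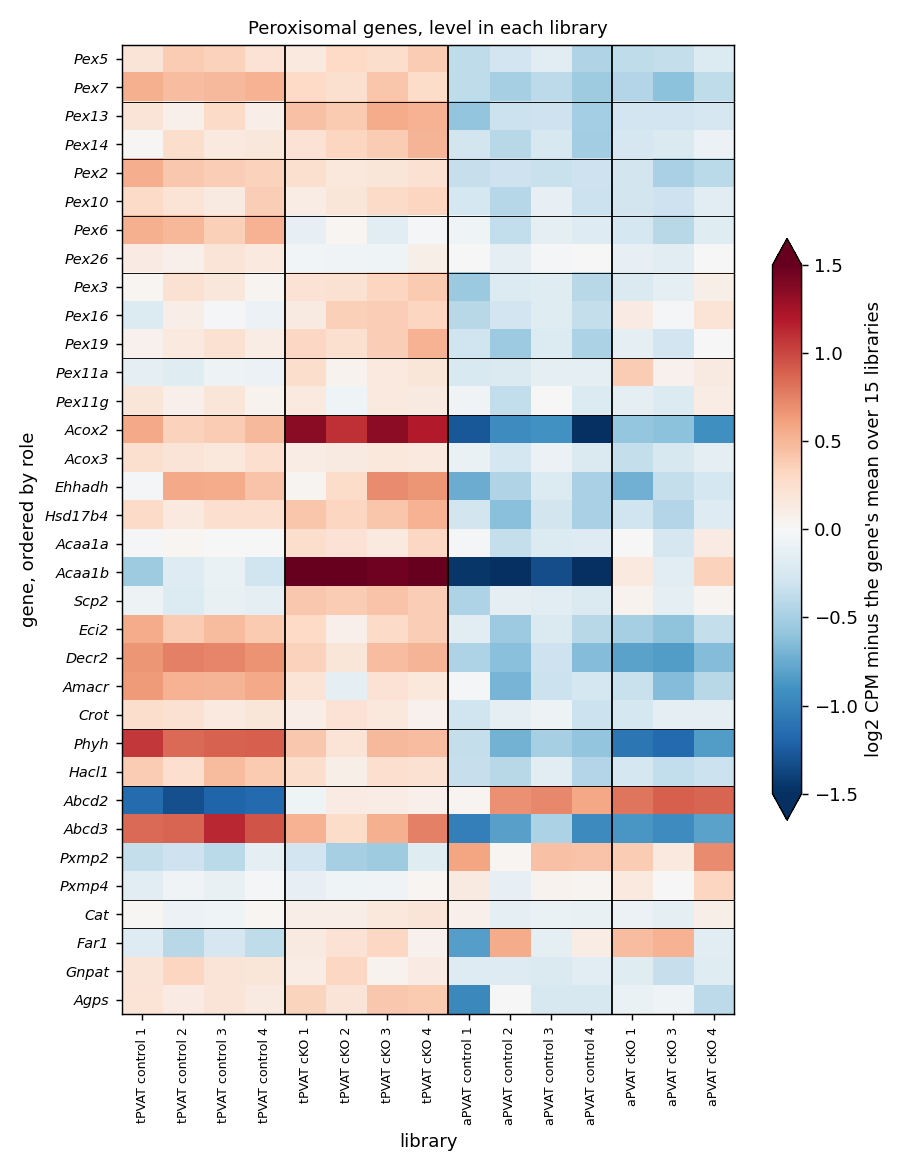
Level of each of the 34 genes in each of the 15 libraries, as log2 CPM minus the gene's mean over the libraries, with colours limited to 1.5 either way (the values run from -1.58 to 1.95). Most genes are above their mean in tPVAT and below it in aPVAT, Abcd2 and Pxmp2 go the other way, and Acaa1b is highest in the 4 tPVAT cKO libraries.

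Compared per kilobase of exon, so that genes can be ranked, Cat was the most abundant of the 34 in tPVAT controls (273 CPM per kb), followed by Phyh (240.7), Scp2 (142), Hsd17b4 (98.9) and Abcd3 (68.3). In aPVAT controls the order was Cat (264.8), Scp2 (131.8), Phyh (87.7) and Hsd17b4 (63.4). Phyh thus ranked behind Scp2 in aPVAT and ahead of it in tPVAT.

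A further 57 peroxisomal genes outside the 34 were listed, of which 50 were tested. In tPVAT cKO 5 of them rose and 5 fell (20% against 12% of all genes), in aPVAT cKO 2 rose and 2 fell (8% against 1.53%), and in the control depot comparison 33 were lower and 10 higher in aPVAT (86% against 56.6%). In tPVAT cKO the smallest p-values belonged to Acot12, an acyl-CoA thioesterase with 1.76 CPM in controls and 0.245 CPM in cKO (log2 -2.84, adjusted p 2.41e-06), Acbd4, an acyl-CoA binding membrane protein (65.4 to 106 CPM, 0.69, adjusted p 0.0001), and Ech1, a dienoyl-CoA isomerase (781 to 484 CPM, -0.69, adjusted p 0.000187). Gstk1 (-0.54, adjusted p 0.00242) and Abcd4 (-0.23, adjusted p 0.0237) also fell and Hsdl2 rose (0.34, adjusted p 0.0196). In aPVAT cKO Slc27a2, an acyl-CoA synthetase for very long chains, went from 14.8 ± 5.3 CPM in controls to 1.74 ± 0.636 CPM (log2 -3.13, SE 0.314, adjusted p 4.02e-05). Its effect differed between depots (-2.60, adjusted p 0.00248), and its change of -0.53 in tPVAT did not pass (adjusted p 0.165). Ech1 also fell in aPVAT cKO (-0.44, adjusted p 0.0468), and Nudt7, a CoA hydrolase, and Tmem135 rose (0.32 and 0.28, adjusted p 0.0207 and 0.0382).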

How the data were processed

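Poly(A) RNA of tPVAT and aPVAT was sequenced from stranded libraries, per the labels' protocols. The authors deposited raw counts per Ensembl gene for 15 libraries. Per the submitters' processing notes the build was mm10 and the tools included Subread, Salmon and DESeq2 1.42.1. Not given in the sources used here are their roles, the annotation and the strandedness used in counting. An aPVAT cKO sample numbered 2 was not analysed here.

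Symbols came from GENCODE M21 on GRCm38 (42468 identifiers, 98%). In R 4.3.3, edgeR 4.0.16 with a minimum count of 10 kept 19645 genes holding 99.98% of the counts. Libraries were scaled by TMM, and 1 quasi-likelihood model with 4 group means was fitted to all 15 libraries (biological coefficient of variation 0.142). P-values were adjusted over all genes tested, and 0.05 was the threshold. Each SE is the log2 fold change divided by the square root of F. The script was tested on simulated data. Alternatives used DESeq2 1.42.0, limma 3.58.1, other scalings and filters, replicate blocks, and leaving out each library.

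Values are given per library for genes that pass in a genotype comparison or in the difference between depots, the 5 largest control depot differences, and the copies Acaa1a and Acaa1b. Of the other peroxisomal genes, up to 6 with the smallest p that pass in each genotype comparison are named, and 1 result is not reported here. The genes and lists were chosen with earlier results of these data known.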

Additional observations from a re-analysis of the deposited data

Results flagged for a closer look

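The genotype effect on Abcd2 differed between depots by -0.9418 on the log2 scale (aPVAT minus tPVAT), by the test of the difference itself. In 2 of 102 groups of 4 libraries a single library stood far from the other 3. These were Pex11g in tPVAT cKO 2, at 9.111 CPM against 10.53 to 10.58 CPM, and Gnpat in tPVAT control 2, at 223.3 CPM against 201.5 to 204 CPM. Chance alone gives such a library in about 1 of 20 groups. Neither gene passed in a genotype comparison.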

How the results depend on the processing

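Across 24 alternatives, 120 of 170 results (34 genes in 5 comparisons) kept their call and 50 changed it in at least 1 alternative. In tPVAT cKO, 14 genes were higher when only the 8 tPVAT libraries were fitted, and leaving out each library gave 7 to 9 higher and 3 to 7 lower, the 3 without tPVAT cKO 2. With each library left out, 29.4% to 47.1% of the 34 were called, against 8.71% to 16.7% of all genes. In aPVAT cKO, 1 gene was higher and 0 lower when only the aPVAT libraries were fitted, and leaving out each library gave 1 to 3 higher and 0 to 1 lower, with 0 lower without aPVAT cKO 1 or 3. The shares with each library left out were 2.94% to 11.8%, against 0.807% to 2.04% of all genes. Unadjusted p was under 0.05 for 23 of the 34 genes in tPVAT and 10 in aPVAT. Among all 19645 genes tested, it was under 0.05 for 5099 in tPVAT and 2438 in aPVAT. For the difference between depots, 1 gene (Pex6) was higher with DESeq2 and with the mitochondrial genome left out, and leaving out each library gave 0 to 1 higher and 1 lower. Both of the former settings called 5.88% of the 34, against 1.78% and 0.824% of all genes. Leaving out each library called 2.94% to 5.88%, against 0.571% to 0.966%. With totals of nuclear genes and no TMM factors, 9 genes were higher and 16 lower in the control depot comparison (73.5% against 68.6% of all genes) and 6 and 14 in cKO (58.8% against 64.8%). In controls the difference was then 0.1816 for Pex26, 0.1054 for Pex16, 0.294 for Pex11a, 0.08801 for Pex11g, 0.1639 for Acaa1a, 0.2509 for Scp2 and 0.3142 for Cat. In cKO it was 0.1286 for Pex6, 0.2647 for Pex26, 0.1474 for Pex16 and 0.183 for Pex11g (both without a call in either scaling), 0.07025 for Acaa1a, 0.03825 for Crot and 0.1679 for Cat. The cause of these changes was not tested.

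Whether same-numbered samples of the 2 depots came from the same animal is not stated and was not tested. Deviations of libraries with the same number and genotype correlated between depots by -0.03002 to 0.165. Over all same-numbered pairs the range was -0.2221 to 0.1686, with both ends from pairs of a control and a cKO library. Of 7 aPVAT libraries, 1 correlated best with the tPVAT library of its own genotype and number. With the number as a replicate block, 7 genes were higher and 6 lower in tPVAT cKO (38.2% against 12.2% of all genes). In aPVAT cKO there were 3 and 1 (11.8% against 1.59%). The depot comparison gave 2 and 27 in controls (85.3% against 56%) and 2 and 26 in cKO (82.4% against 51.1%). For the difference between depots there were 0 and 1 (2.94% against 0.814%). With genotype and number taken as an animal in the replicate block, 0 genes passed for that difference (adjusted p 0.056 for Abcd2), against 0.753% of all genes. The genotype comparisons came instead from a limma fit with a shared correlation within animal, estimated at 0.0217. They gave 7 and 6 in tPVAT (38.2% against 11.6%), and 3 and 1 in aPVAT (11.8% against 1.57%). So small a correlation changes such a fit little, and these counts therefore say little about pairing.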
